A study of Caenorhabditis elegans with 2 samples.

Results

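Chaperonin and major chaperone genes are described here in a ChIP-seq experiment on DMD-4, a DM-domain transcription factor of Caenorhabditis elegans. The 10 genes are the 8 CCT subunit genes cct-1 to cct-8, the mitochondrial chaperonin gene hsp-60 and the cytosolic Hsp90 gene hsp-90, out of 19973 nuclear protein-coding genes in the annotation. They were selected by name, with the regions and the signals at these genes already known from earlier work on these data, so the counts below are descriptions and carry no test. A region was assigned to a gene when its summit, the position of its highest signal, was in the gene body or near an annotated start site, at most 2000 bp before or 500 bp after it, which is called in reach below.

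The material was 2 biological replicates of a single group, whole L2 larvae of both sexes pooled. Both came from strain OP418, genotype unc-119(tm4063) III; wgIs418, in which a transgene expresses DMD-4 with GFP and FLAG fused to its C terminus. Both replicates carry the transgene and the unc-119 allele, and larvae without the tagged protein were not analysed here. DNA was taken from whole animals, so a region is an average over all cell types and cannot be assigned to any of them.

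CCT, also called TRiC, is a double-ring complex in the cytosol that encloses actin, tubulin and other proteins while they fold, and each of its subunits is encoded by a separate gene. HSP-60 forms the corresponding chamber in mitochondria together with a small lid protein, the co-chaperonin. HSP-90 acts late in the folding of kinases, receptors and other signalling proteins. Genes for such chaperones are commonly under the control of heat shock factor, which binds arrays of the unit GAA and its reverse complement TTC spaced by a pair of bases.

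Lists of 4 kinds were used, and each region carries a signal that is the authors' own value on a scale not given in the sources used here, so signals only rank regions within 1 list. The lists of candidate regions are long and reach down to weak signal. The pooled one is labelled as peaks and background used as input for IDR, so a candidate region need not be a binding site. They held 11281 regions for both replicates pooled (nuclear median signal 16.6), 17531 for replicate 1 (median 9.24, lowest 6.83) and 18240 for replicate 2 (median 8.36, lowest 6.12). The thresholded list, made with IDR, a procedure that keeps regions whose ranks repeat between replicates, held 212 peaks with signals from 46.4, of which 185 were nuclear. The files hold regions and no reads, so the depth of each replicate is unknown.

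Of the 10 genes, cct-1, cct-8, hsp-60 and hsp-90 had an IDR peak in reach. The 4 sequences around their summits are shown first because the account turns on these peaks. Each summit lies between the start sites of a chaperone gene and of a neighbour transcribed away from it. Each line gives the 100 bases on either side of the summit of the pooled region, 201 bases in all, from the RefSeq genome of assembly WBcel235, which is ce11. Capitals mark matches to GAANNTTC or TTCNNGAA, the head-to-head and tail-to-tail pairs of heat shock units, and no annotated exon overlaps any of the 4 windows.
cct-8 peak, chrIV:1094266-1094466, plus strand: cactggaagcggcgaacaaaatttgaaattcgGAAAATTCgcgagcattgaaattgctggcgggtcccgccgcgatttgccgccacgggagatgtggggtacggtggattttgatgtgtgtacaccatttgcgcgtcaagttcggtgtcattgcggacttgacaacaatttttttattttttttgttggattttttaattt
hsp-60 peak, chrIII:1619031-1619231, plus strand: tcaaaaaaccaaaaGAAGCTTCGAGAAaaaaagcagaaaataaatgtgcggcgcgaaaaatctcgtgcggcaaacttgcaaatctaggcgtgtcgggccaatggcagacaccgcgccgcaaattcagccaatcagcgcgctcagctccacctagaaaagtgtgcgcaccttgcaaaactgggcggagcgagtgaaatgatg
hsp-90 peak, chrV:14685691-14685891, plus strand: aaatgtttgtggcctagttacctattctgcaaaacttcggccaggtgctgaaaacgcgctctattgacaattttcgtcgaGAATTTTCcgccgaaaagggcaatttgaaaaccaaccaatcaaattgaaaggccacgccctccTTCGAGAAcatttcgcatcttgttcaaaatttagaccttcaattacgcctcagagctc
cct-1 peak, chrII:8185110-8185310, plus strand: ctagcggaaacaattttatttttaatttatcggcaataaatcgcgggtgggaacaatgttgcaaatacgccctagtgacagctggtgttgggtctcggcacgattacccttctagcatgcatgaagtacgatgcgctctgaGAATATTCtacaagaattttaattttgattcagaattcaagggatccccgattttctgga

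The peaks of these 4 genes ranked from 50 to 213 in the candidate lists. The summit upstream of cct-8, which encodes a CCT subunit, lay at IV:1094366 in a region from 1094191 to 1094540. Its pooled signal was 120.0, rank 51 of 11281 and rank 24 when only nuclear regions are ranked. In replicate 1 its signal was 67.8, rank 50 of 17531, and in replicate 2 it was 52.3, rank 57 of 18240. The replicate summits lay 23 bp apart. Because IDR keeps regions whose ranks repeat, similar ranks in both replicates follow from how this peak was selected.

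The hsp-60 summit lay at III:1619131 in a region from 1618956 to 1619305. Its pooled signal was 100.3, rank 59, with 49.6 in replicate 1, rank 69, and 51.7 in replicate 2, rank 59. The replicate summits were 40 bp apart. The hsp-90 summit lay at V:14685791 in a region from 14685616 to 14685965, with a pooled signal of 87.1, rank 74. Its signal was 50.2 in replicate 1, rank 68, and 37.1 in replicate 2, rank 88, at summits 24 bp apart. Their similar ranks in the replicates are likewise what IDR selects for.

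The cct-1 peak was the weakest of the 4. Its summit lay at II:8185210 in a region from 8185035 to 8185384, with a pooled signal of 60.4, rank 125, just below the median of 61.4 over nuclear IDR peaks. Its signal was 32.1 in replicate 1, rank 143, and 25.4 in replicate 2, rank 213, at summits 15 bp apart. Among the 233 genes with an IDR peak in reach, ordered by their strongest peak, cct-8 was 21st, hsp-60 29th, hsp-90 53rd and cct-1 121st.

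The replicates placed these peaks about as closely as they placed other IDR peaks. Over the 185 nuclear IDR peaks, each of which overlapped a region in both replicates, the distance between replicate summits had a median of 28 bp, with quartiles of 11 and 55 bp. The ratio of the replicate 1 signal to the replicate 2 signal was 1.26 at cct-1, 1.30 at cct-8, 0.96 at hsp-60 and 1.35 at hsp-90. All 4 ratios lay within the quartiles of 0.888 and 1.51 over nuclear IDR peaks, whose median ratio was 1.13.

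**Figure D1:**
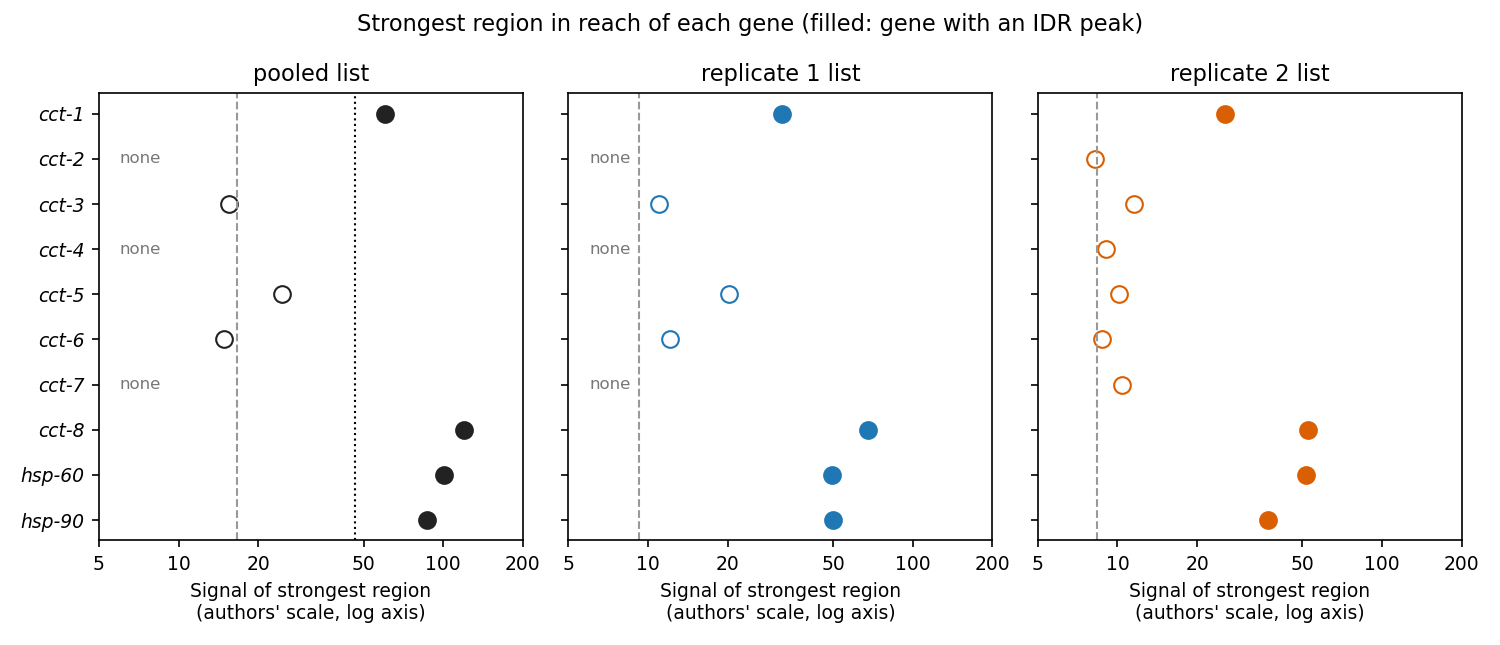
Signal of the strongest region in reach of each gene, on a log axis in the authors' units, in the pooled, replicate 1 and replicate 2 lists, with filled points for genes that have an IDR peak. In the pooled list cct-8, hsp-60, hsp-90 and cct-1 lie between 60.4 and 120.0 and cct-5, cct-3 and cct-6 between 14.9 and 24.5, while cct-2, cct-4 and cct-7 have a point in replicate 2 only.

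The genes fell into 3 classes by the lists that held a region. IDR peaks were in reach of 4 of 10 genes, against 1.17% of all nuclear protein-coding genes, and all 4 lay within the start window, where 1.06% of all genes had one when the gene body was left out. These shares are given as background only, because the IDR peaks were known when the genes were chosen. A pooled candidate region was in reach of 7 of 10 genes, the same 4 with cct-3, cct-5 and cct-6, against 33.9% of all genes. With the gene body left out the count was 4 of 10, against 26.6% of all genes.

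In the separate lists, replicate 1 held a region in reach of 7 of the 10 genes, against 47.8% of all genes, and replicate 2 one in reach of all 10, against 49.8% of all genes. Both lists did so for 7 genes, against 32.1% of all genes. When the summits of the replicates had to lie within 100 bp of each other, the count was 4 of 10, against 10.8% of all genes. These were again the genes with an IDR peak, and IDR itself requires agreement between replicates. The genes differ in length, with a median of 3440 bp and a range of 2045 to 10000 bp against a median of 2030 bp over all genes, and a longer body has more room for a weak region. The part of length in these counts was not tested.

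The pooled signals of the genes on either side of the IDR threshold are given as a description, because these signals were known when the genes were chosen. Just inside it was cct-1 with a pooled signal of 60.4, and just outside it was cct-5 with 24.5, whereas the lowest signal of any IDR peak was 46.4. No gene of the 10 had a strongest pooled region between 24.5 and 60.4. Among the 6775 genes with a pooled region, cct-1 stood at place 121 and cct-5 at place 1354. An empty interval among so few chosen genes does not show a separation.

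**Figure D2:**
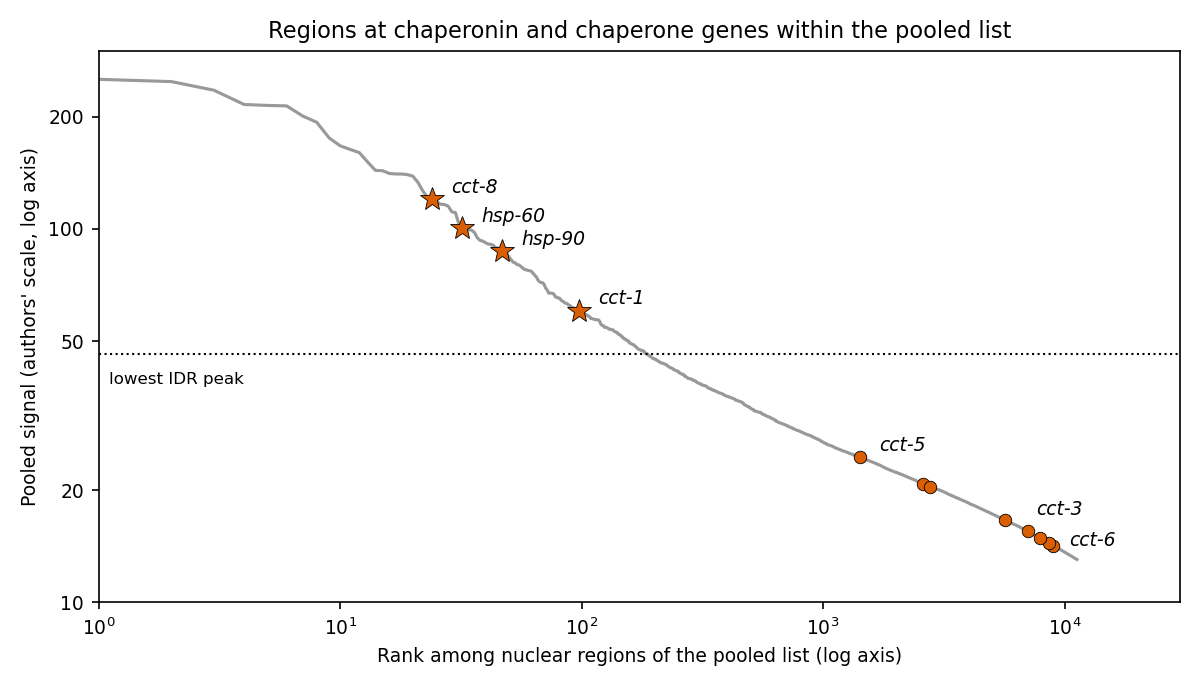
Signal of the 11254 nuclear pooled candidate regions against their rank among nuclear regions, both on log axes, with the regions of the named genes marked. The 4 IDR peaks sit at nuclear ranks 24 to 98 on the steep part of the curve. The 8 other regions at the genes sit at nuclear ranks from 1425 to 8950, where signals run from 14.2 to 24.5.

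All 4 IDR peaks lay between head-to-head start sites, and the neighbour's start site was the nearer of the pair each time. The cct-8 summit was 446 bp upstream of cct-8, and 175 bp upstream of Y55F3AR.2, which encodes a thioredoxin domain protein and is transcribed the other way. The start of the noncoding gene Y55F3AR.4 lay 279 bp from that summit. The hsp-60 summit was 611 bp upstream of the nearest hsp-60 start site, 628 bp upstream of the main one, which is the start site closest before the start codon, and 202 bp upstream of Y22D7AL.10, annotated in RefSeq as the mitochondrial 10 kDa heat shock protein. That product is the co-chaperonin that closes the HSP-60 chamber, so a single region stood between the genes for both components.

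The cct-1 summit was 233 bp upstream of cct-1, and 187 bp upstream of mig-5, which encodes a homolog of Dishevelled, a Wnt signalling protein. The hsp-90 summit was 369 bp upstream of the start site nearest to the start codon and 306 bp upstream of C47E8.4, a FAM50 homolog. A longer hsp-90 transcript starts farther upstream, at V:14684918, so this summit also lies in an intron of hsp-90. None of the 4 peaks can be assigned to the chaperone gene over its neighbour from these lists.

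**Figure D3:**
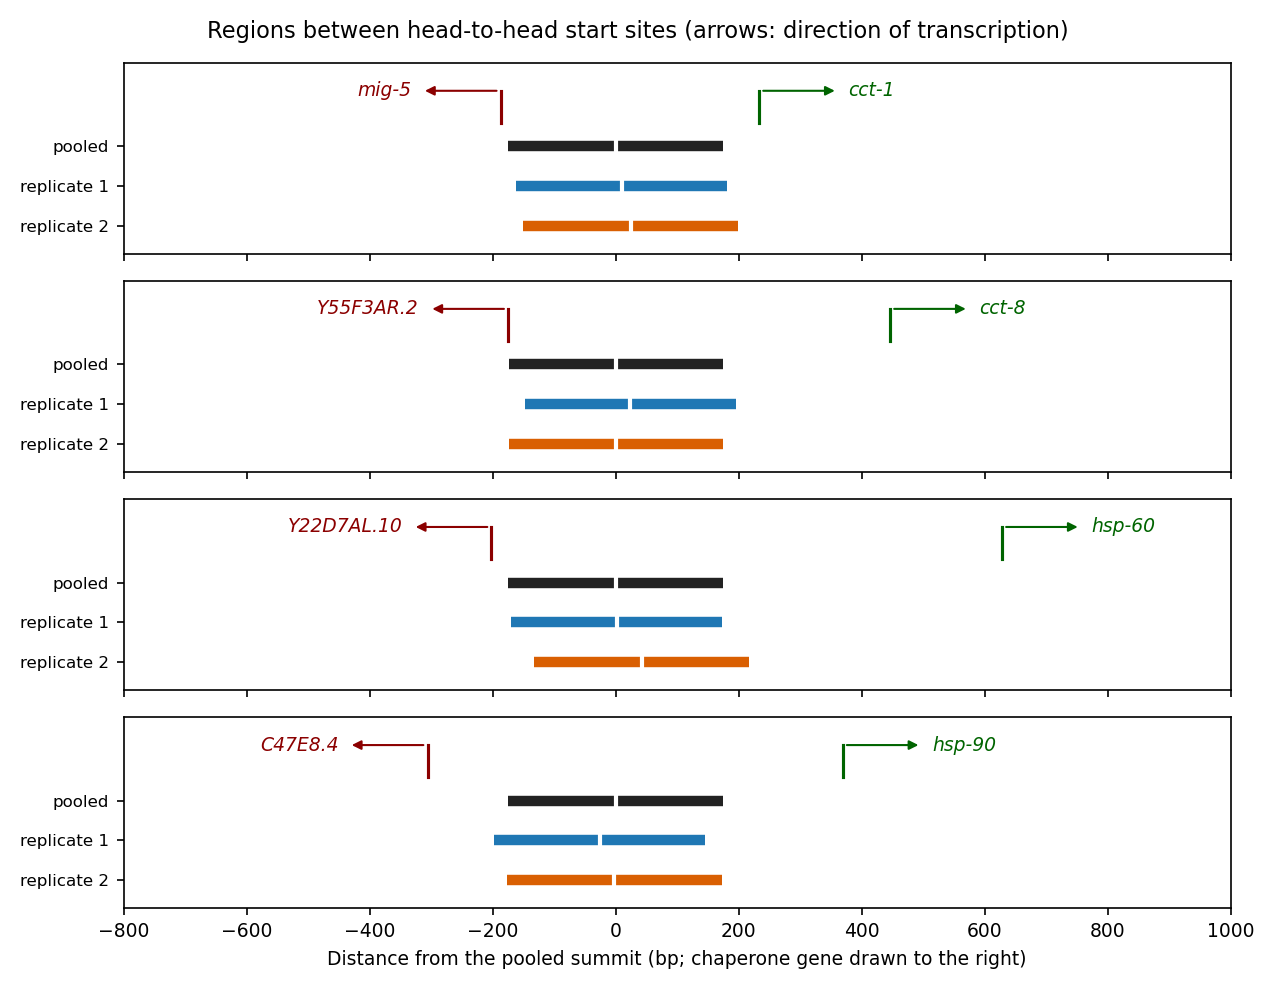
Start sites (arrows in the direction of transcription) and the pooled, replicate 1 and replicate 2 regions (bars, with a gap at the summit) at the 4 genes with an IDR peak, as distance in bp from the pooled summit. The main start site is drawn for the chaperone gene and the one nearest the summit for its neighbour. Other start sites, such as that of the longer hsp-90 transcript, are not drawn. The pooled summit lies between the start sites of the chaperone gene and its neighbour, 175 to 306 bp from the neighbour and 233 to 628 bp from the chaperone gene.

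Head-to-head arrangement was shared by all 10 genes, with or without an IDR peak. The nearest upstream protein-coding gene was transcribed the other way in 10 of 10, compared with 45.4% of 19952 nuclear protein-coding genes. The start-to-start distance ranged from 336 bp at cct-6 to 1190 bp at cct-2, with a median of 648 bp. Over all genes with such a neighbour the median was 1580 bp. Distances were taken from the main start site, and the longer hsp-90 transcript starts beyond the start of C47E8.4. Among the genes without an IDR peak, cct-6 and its partner alh-9, an aldehyde dehydrogenase gene, were only 336 bp apart, and cct-7 and T10B5.4 only 445 bp. Of the 99 autosomal IDR peaks at most 1000 bp before or 200 bp after a protein-coding start site, 43 (43.4%) had such start sites on both strands.

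Every CCT ring is built from all of the subunits, but their genes differed from each other in these lists. Besides cct-1 and cct-8, the strongest region was at cct-5, whose pooled signal of 24.5 ranked 1452 and stood at place 1354 among the 6775 genes with a pooled region, above the median best signal of 17.9. This region lay in an intron near the 3′ end of cct-5, at III:4499900, and was also in reach of C07G2.5 and of atf-7, which encodes a bZIP transcription factor. Its signal was 20.2 in replicate 1, rank 549, and replicate 2 held no region there. In reach of cct-5, a gene of 8927 bp, were 8 regions of replicate 1, all but 1 of them inside the gene, with signals of 7.79 to 20.2, and 2 of replicate 2, with 10.1 and 7.83. The closest pair of summits across replicates was 200 bp apart.

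The 10000 bp of cct-3 held 3 pooled regions, all in introns, with signals of 14.2, 15.5 and 14.4. Replicate 1 gave signals of 11.0 and 7.15, and replicate 2 gave 7.37, 11.5 and 6.93. No summit of one replicate came closer than 720 bp to a summit of the other. The best pooled region of cct-3 put it at place 4912 of the 6775 genes, below the median.

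At cct-6 the single pooled region, with a signal of 14.9, lay in the 3′ UTR and 323 bp upstream of the RNA helicase gene ddx-23. Replicate 1 held it at rank 3805 of 17531. The only region of replicate 2, with a signal of 8.73, lay 53 bp upstream of cct-6 itself, 2121 bp away from that of replicate 1. The 2 replicates therefore marked opposite ends of the gene.

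The subunit genes cct-2, cct-4 and cct-7 had no pooled and no replicate 1 region in reach, and 1 weak region each in replicate 2. The signal was 8.20 at cct-2, 9.04 at cct-4 and 10.4 at cct-7, at ranks 9596, 7434 and 4773 of 18240. The signals at cct-4 and cct-7 were above the nuclear median of that list, 8.36. The authors' −log10 q-value was 0.24, 0.38 and 0.60 in the same order. In that list it was 0.09 to 0.79 at cct-3, 0.19 and 0.55 at cct-5, and 0.33 at cct-6. Their summits lay 608, 519 and 474 bp upstream of the subunit gene and were also in reach of the divergent neighbour, B0457.2, nst-1 and T10B5.4 respectively. The nearest IDR summit was 190133 bp from cct-2, 98458 bp from cct-4 and 720791 bp from cct-7.

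Weak regions occurred inside the genes with an IDR peak as well. In cct-1 a second pooled region, with a signal of 20.8 and rank 2619, lay in an intron at II:8187149. Replicate 1 gave it a signal of 8.78 and replicate 2 one of 9.05, with summits 7 bp apart, the closest pair across replicates at any of the 10 genes. These signals were below the nuclear median of replicate 1, 9.24, and above that of replicate 2, 8.36. The other regions in cct-8, hsp-60 and hsp-90 were each in 1 replicate only, with signals of 8.48 in replicate 1 and 6.58 to 9.69 in replicate 2. Altogether the 10 genes had 12 pooled regions in reach, of which 4 lay in a start window and 8 only in a gene body, and 7 were shared with another protein-coding gene.

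The weaker regions had neighbours too. In the pooled list and in replicate 1, a cct-3 intron region was within reach of F54A3.6, an osa-like trithorax group gene, and in replicate 2 the region at the 3′ end of cct-3 lay 296 bp upstream of F54A3.2. A replicate 1 region 1850 bp upstream of cct-5, with a signal of 8.70, was inside the kinase domain gene F25F2.1. The replicate 2 region of cct-6 was 278 bp upstream of alh-9, and that of cct-7 was also in reach of T10B5.3 and the noncoding gene T10B5.13. The replicate 2 region at the 3′ end of hsp-60 was in reach of Y22D7AL.4, which encodes a TFIID subunit, and of the noncoding gene Y22D7AL.19. The replicate 2 region in an hsp-90 coding exon was in reach of C47E8.4, gasr-8 and C47E8.11.

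**Figure D4:**
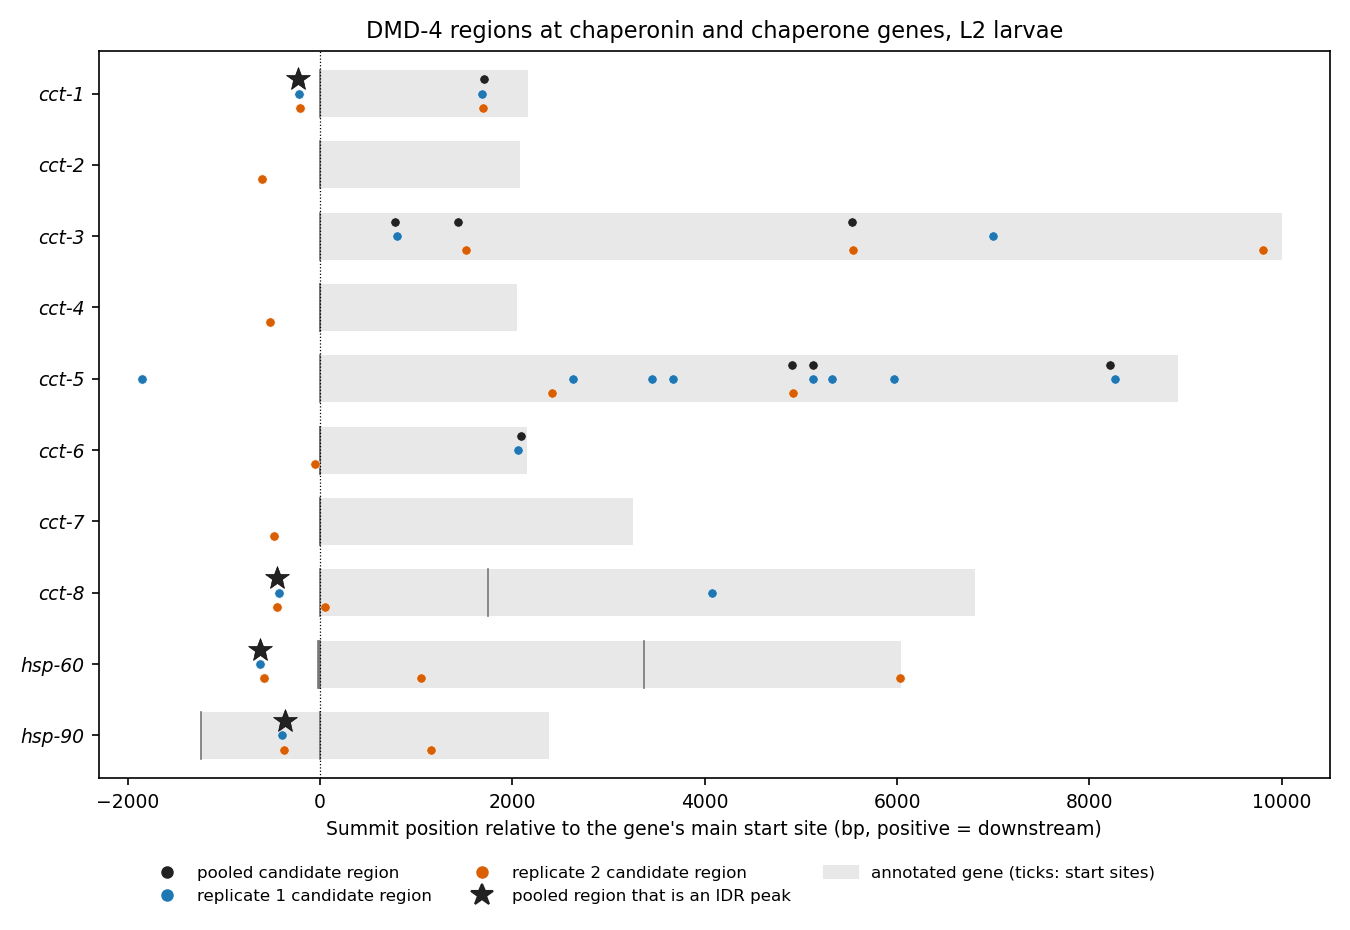
Summits of all regions in reach of the 10 genes by list, as distance in bp from the main start site of each gene, with the gene body drawn as a bar. IDR peaks sit upstream of the main start site at cct-1, cct-8, hsp-60 and hsp-90, and the remaining pooled regions of cct-1, cct-3, cct-5 and cct-6 lie in gene bodies.

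The printed sequences shared a pair of heat shock units. GAANNTTC, its own reverse complement, was found in 4 of 4 windows, against 13% of the 185 nuclear IDR peaks, 15.1% of the 139 autosomal ones and 14.2% of 11069 other nuclear candidate regions, all over windows of 201 bp. The match began 41 bp to the right of the summit on the plus strand at cct-1, and 68, 86 and 20 bp to the left at cct-8, hsp-60 and hsp-90. TTCNNGAA, also its own reverse complement, was in 2 of 4 windows, at hsp-60 and hsp-90, against 11.4%, 10.1% and 14.5% of the same sets. At cct-1 a further match, TTCTGGAA at II:8185304 to 8185311, lay inside the peak's region. It ran past the edge of the 201 bp window and was not counted. At hsp-60 the matches overlapped in GAAGCTTCGAGAA, a run of 3 units that 2.16% of nuclear IDR peaks and 1.76% of other candidate regions contained. With either pair counted, 4 of 4 windows matched, against 20% of nuclear IDR peaks and 25.2% of other candidate regions. A match is a string of letters, and no binding of heat shock factor was measured here.

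The same pairs were common in the promoters of the genes without an IDR peak. In the 300 bp that run from 250 bp before to 50 bp after the main start site, GAANNTTC was present at cct-1, cct-3, cct-5, cct-7 and cct-8, against 18.6% of 19957 promoters. TTCNNGAA was present at cct-1, cct-4, cct-5, cct-6, cct-7 and hsp-90, against 19.2%. Either was found in 8 of 10 promoters, all but cct-2 and hsp-60, against 32.8% of promoters. At cct-1 the promoter window overlaps the peak, and its GAATATTC at II:8185251 is the one marked in the printed sequence.

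Other strings searched on both strands were absent from the 4 windows. Each was in a small share of IDR peaks and of promoters. Absence from 4 windows or 10 promoters is therefore close to those shares and is no trait of these genes. GCGGGAA, which resembles a site of E2F factors, was in none of the 4 windows, against 3.24% of nuclear and 4.32% of autosomal IDR peaks. None of the 10 promoters held it, against 3.13% of promoters. A further 3 strings had been picked because they were frequent among the IDR peaks as a whole, and none of the 4 windows held any of them. All 4 windows are autosomal. GCAGGGA was in 11.4% of nuclear IDR peaks but 4.32% of autosomal ones, in none of the 10 promoters and in 1.28% of promoters. CTTGCGC was in 11.4% of nuclear and 14.4% of autosomal IDR peaks, in none of the 10 promoters and in 1.19% of promoters. CGCAAGC, whose reverse complement overlaps the string before it, was in 9.73% of nuclear and 11.5% of autosomal IDR peaks and in 1.14% of promoters, among them that of cct-7. No 7-mer was common to all 4 windows, and the 7 found in 3 of them were rich in A and T. Each of these was in 13% to 33% of nuclear IDR peaks and in 17.9% to 35.1% of other candidate regions. The GC content of the windows was 41.3% at cct-1, 44.8% at cct-8, 50.2% at hsp-60 and 43.3% at hsp-90. All 4 were above the median of 38.8% over nuclear IDR peaks, whose upper quartile was 43.3%. Only cct-8 and hsp-60 were above that quartile, with hsp-90 at it and cct-1 below. All 4 were also above the upper quartile of 34.3% over other candidate regions, as was the median of nuclear IDR peaks.

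Other genes were read from 7 lists. Folding genes were prefoldin and the co-chaperonin, other Hsp90 proteins and Hsp90 co-chaperones, Hsp70 proteins, small heat shock proteins and J-domain proteins. The rest were the CCT clients actin and tubulin, and the regulators hsf-1, hsb-1, ddl-1, ddl-2, efl-1, dpl-1, atfs-1 and lin-35. Whether these regulators act on chaperone genes was not examined here. Of the 99 genes found, 5 (5.05%) had an IDR peak in reach and 50 (50.5%) a pooled candidate region, against the background shares of 1.17% and 33.9%. The lists were chosen with earlier results known, and 1 of the 5 was counted through the hsp-60 peak itself. These shares are therefore background only and do not show an excess at folding genes. None of 9 Hsp70 genes, 14 small heat shock protein genes or 11 genes for other Hsp90 proteins and co-chaperones had an IDR peak, and 6, 5 and 6 of them had a pooled region. Among 29 J-domain genes, 2 had an IDR peak and 16 a pooled region. Prefoldin and the co-chaperonin had 1 and 5 of 7, actin and tubulin 1 and 10 of 21, and the regulators 1 and 2 of 8.

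The 5 genes with an IDR peak were the co-chaperonin gene Y22D7AL.10, which shares its peak with hsp-60, the J-domain genes dnj-9 and dnj-13, the alpha-tubulin gene tba-2 and the E2F-like factor gene efl-1. The pooled signal at dnj-9 was 84.0, with 51.9 in replicate 1 and 33.6 in replicate 2, close to the values at hsp-90. At dnj-13 it was 50.2, with 30.1 and 20.9, at tba-2 it was 57.6, with 32.3 and 29.6, and at efl-1 it was 55.2, with 22.8 and 31.2. These summits lay 115 to 248 bp upstream of the named gene, which also had the nearest start site, unlike the peaks at the 4 chaperone genes.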

How the data were processed

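The authors deposited lists of ChIP-seq regions, made per the deposited file descriptions from ce11 alignments with a control alignment. Those descriptions say that the IDR list was derived from the pooled and the replicate lists. Aligner, caller, IDR threshold and control are likewise not given in the sources used here. Each deposited signal and its −log10 q-value are the authors' values, and the q-value was not used to rank. Lists on ce10 were not used. Summits (1-based) were matched to Ensembl release 115 genes of WBcel235, the sequence of ce11. Sequences and gene products came from RefSeq on the same assembly. Python 3.11.15, numpy 2.4.6, pandas 2.3.3 and matplotlib 3.10.9 were used, and the counting was tested on simulated regions. Members, gene lists and motifs were chosen with earlier results of these data known, so no test was made. All 10 members were named, and genes of other lists where they had an IDR peak. Every gene that shared a member's region was named. Alternatives varied the window, the assignment, the threshold and the replicate.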

Additional observations from a re-analysis of the deposited data

How the results depend on the processing

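The 4 genes with an IDR peak kept it when the window was narrowed to 1000 bp upstream and 200 bp downstream of a start site. They also kept it when the gene body was left out and when any overlap counted. In those 3 settings 0.816%, 1.06% and 1.31% of all genes had a peak. When each region was given only to the nearest start site, the count was 0, since the neighbour's start is nearer at all 4, and 0.681% of all genes had a peak. The stronger 106 IDR peaks gave 3, without cct-1, against 0.496% of all genes. The 212 strongest regions of 1 replicate by itself gave 3 to 4, with cct-1 missed in replicate 2, where it ranked 213. The shares of all genes were 1.06% with replicate 1 and 1.14% with replicate 2. The 7 genes with a pooled region became 4 in the narrow window, against 18.1% of all genes, and 4 without the body, against 26.6%. By nearest start they became 2 of 10 (cct-1 and cct-3), less than the 26.3% of all genes. The list of a single replicate gave 7 with replicate 1, against 47.8%, and 10 with replicate 2, against 49.8%. The 7 genes with a region in each replicate became 4 in the narrow window, 4 without the body, 4 by nearest start, and 4 with summits within 100 bp. Any overlap changed none of the 3 counts. With it, 36.3% of all genes had a pooled region and 35% had one in each replicate. No paired analysis was possible because the series has 1 group. Reads, depth and control were not used here, so the signal's precision is unknown.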
